A study of Mus musculus with 9 samples.

Results

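Genes of glucose uptake, glycolysis, lactate, glycogen and the pentose phosphate route were followed in the mouse hippocampus of mice that lack or overexpress the ATPase inhibitory factor 1 (IF1) in neurons. The 33 genes were taken by name: every non-control probe of the array whose gene name was 1 of the 33 was used, which gave 56 probes of the 39429 on the array. A probe was kept if some genotype had it well above background in each of its 3 mice. All 56 probes were kept, as were 27991 probes with 21905 gene names in the whole array. Of the 33 genes, 10 had more than 1 probe.

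RNA came from the hippocampus of male C57BL/6J mice aged 9 months, with 3 mice per genotype and 1 one-colour array per mouse. In IF1-KO mice, exon 3 of a floxed Atp5if1 gene (named Atpif1 on the array) is removed by Cre under the Camk2a promoter, which acts mostly in excitatory neurons, so other cells of the tissue keep the gene. In IF1-TG mice, human IF1 under a tetracycline-regulated element is driven by a transactivator that is itself under the Camk2a promoter. The sample labels call the third group control (CRL) and give no further alleles. Because whole hippocampus was used, fewer cells of a type and less RNA per cell cannot be told apart.

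IF1 binds the mitochondrial ATP synthase and blocks its rotation. Cells that make less ATP in mitochondria can draw on glycolysis, in which glucose is split to pyruvate in the cytosol, and lactate dehydrogenase turns pyruvate into lactate. In the brain, glycogen is held mainly by astrocytes, and lactate can pass from astrocytes to neurons.

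Levels are given as log2 processed intensity minus the 75th percentile of the same array, so a level of 0 is the intensity below which 75% of the spots of that array lie. A gene was called when at least 1 of its probes differed by at least 1.5-fold with an unadjusted P value below 0.05 in limma. Each gene is described by its brightest probe unless another is named. Probes differ in how well they bind, so levels of different probes were used to order probes by brightness and not to compare amounts of transcript.

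The targeted gene was looked at first. Atpif1 had levels of 5.20 and 5.53 in IF1-KO replicates 2 and 3, 6.19 to 6.34 in CRL and 6.38 to 6.51 in IF1-TG, but 6.43 in the array labelled IF1-KO replicate 1, which goes against its label; its single probe, on mouse sequence, was not matched to exon 3. Comparisons with IF1-KO are therefore also counted without that array.

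The 9 arrays lay on 3 slides: IF1-TG replicates 1 and 2 on slide 1, 1 IF1-KO, 2 CRL and 1 IF1-TG array on slide 2, and 2 IF1-KO and 1 CRL array on slide 3. Slide 1 thus held IF1-TG arrays only. Between 66.7% and 69.5% of probes were well above background on the IF1-TG arrays and between 71.0% and 74.9% on the other 6. No spot was saturated, and arrays of a genotype correlated at 0.983 to 0.992 over the kept probes. Precision is limited by having 3 arrays per genotype, and the part of slide and of background in the results was not tested beyond the values given.

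On these terms 3 of the 33 genes were called between IF1-TG and CRL mice: glycogen synthase Gys1 was higher, and the glycogen branching enzyme Gbe1 and the phosphoglycerate mutase Pgam1 were lower. That is 9.09% of the genes, beside 5.59% of all genes tested. Between IF1-KO and CRL mice none of the 33 was called, beside 1.34% of all genes. Set against IF1-KO, IF1-TG mice had 1 called gene, Pgam1, which was lower, beside 4.7% of all genes. None of these calls had an adjusted P value below 0.05 in limma. The smallest adjusted P value among the brightest probes was 0.378 for IF1-TG versus CRL, where 7 of 33 had an unadjusted P value below 0.05, beside 8.12% of all genes. It was 0.66 for IF1-TG versus IF1-KO, where 4 of 33 did, beside 6.86% of all genes, and no brightest probe did for IF1-KO versus CRL, beside 2.57%. With the IF1-KO array of high Atpif1 left out, 1 of the 33 genes was called between IF1-KO and CRL, by the dimmer Gys1 probe (1.01 ± 0.41, adjusted P = 0.984 in limma), beside 2.06% of all genes. Between IF1-TG and IF1-KO 2 were then called, Gys1 and Pgam1, beside 5.73%.

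The 60-base probes behind these calls lie near the 3′ ends of their transcripts, so only their first 30 bases are shown, as the array file gives them. They are shown because each call rests on 1 probe. The Gys1 call rests on a probe at chr7:52711790-52711849 of mm9 (plus strand), the Gbe1 call on one at chr16:70569840-70569899 (plus strand) and the Pgam1 call on one at chr19:41992898-41992957 (plus strand). The second Gys1 probe lies at chr7:52711158-52711217.
Gys1, called probe: ttcttgaagccccacatgtacctcgaggcc
Gys1, second probe: tgtggcttcccgaatcagccaagttcagag
Gbe1: tgtccgtatactgtttcagtagacgctgat
Pgam1: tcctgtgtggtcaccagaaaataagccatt

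Glycogen genes held both of the calls that rested on all 3 IF1-TG arrays. Gys1 (NM_030678) encodes the glycogen synthase of muscle and brain, which lengthens glycogen chains. Its level was 0.63, 0.57 and 0.89 in the IF1-TG mice, −0.12, 0.25 and −0.11 in the CRL mice, and 0.38, 0.17 and −0.05 in the IF1-KO mice. All 3 IF1-TG arrays lay above the 6 others. The difference between IF1-TG and CRL was 0.69 ± 0.16 on the log2 scale (SE, n = 3 per genotype), a 1.61-fold change (adjusted P = 0.378 in limma). Against IF1-KO the log2 difference was 0.53 ± 0.16, short of 1.5-fold (adjusted P = 0.66 in limma). Leaving out each of the 9 arrays in turn kept the Gys1 call against CRL every time, with log2 differences from 0.59 to 0.81. On the 1 slide that held both genotypes, IF1-TG was higher than CRL by 0.83 on the log2 scale. The second Gys1 probe, which was dimmer and spread more, had a log2 difference between IF1-TG and CRL of 0.91 ± 0.46 (adjusted P = 0.633 in limma), and its arrays overlapped.

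Gbe1 (NM_028803) encodes the enzyme that adds branches to glycogen chains. Its level was −1.16, −1.15 and −0.86 in the IF1-TG mice, 0.29, −0.62 and −0.42 in the CRL mice, and −0.62, −0.59 and −0.45 in the IF1-KO mice. All 3 IF1-TG arrays lay below the 6 others, and 1 CRL array stood above the rest. Between IF1-TG and CRL the log2 level fell by 0.80 ± 0.22, a 1.74-fold change (adjusted P = 0.45 in limma). Without that array, CRL replicate 1, the log2 level fell by 0.53 and the change no longer reached 1.5-fold. Within slide 2 the difference was −0.69, and with slide as a fixed block it was −0.63 and was not called. Because slide 1 held IF1-TG arrays only, the estimate with that block rests on 1 IF1-TG array, replicate 3. Against IF1-KO the log2 difference was −0.50 ± 0.22 (adjusted P = 0.704 in limma).

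None of the other glycogen genes was called. Pygm, the muscle glycogen phosphorylase that also serves astrocytes and releases glucose units from glycogen, had levels of 0.87, 0.69 and 0.36 in IF1-TG, 0.44, 0.57 and 0.79 in CRL, and 0.35, 0.89 and 0.63 in IF1-KO. The 3 genotypes overlapped throughout. The log2 difference of Pygm was 0.04 ± 0.19 between IF1-TG and CRL, with a 95% interval from −0.39 to 0.47, and 0.02 ± 0.19 between IF1-KO and CRL, with an interval from −0.41 to 0.45. A change of 1.5-fold lay outside both intervals. The brain phosphorylase Pygb differed by 0.03 ± 0.12 between IF1-TG and CRL and by 0.05 ± 0.12 between IF1-KO and CRL. The phosphoglucomutase listed as Pgm2, which carries the symbol Pgm1 in RefSeq and links glycogen to glycolysis, differed by 0.27 ± 0.18 and 0.20 ± 0.18. Gys1 and Gbe1, 1 gene each for synthesis and branching, thus differed in opposite directions between IF1-TG and CRL. Neither call had an adjusted P value below 0.05 in limma. Whether genes of glycogen synthesis and breakdown differ as groups was not tested. The summed level of 10 astrocyte markers was 6.344 to 6.487 in IF1-TG, 5.848 to 6.336 in CRL and 6.166 to 6.337 in IF1-KO, so all 3 IF1-TG arrays lay above the 6 others, if narrowly. None of these markers was called between IF1-TG and CRL and 1 was called, higher in IF1-TG, against IF1-KO. Their part in the glycogen and Aldoc values was not tested.

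**Figure D1:**
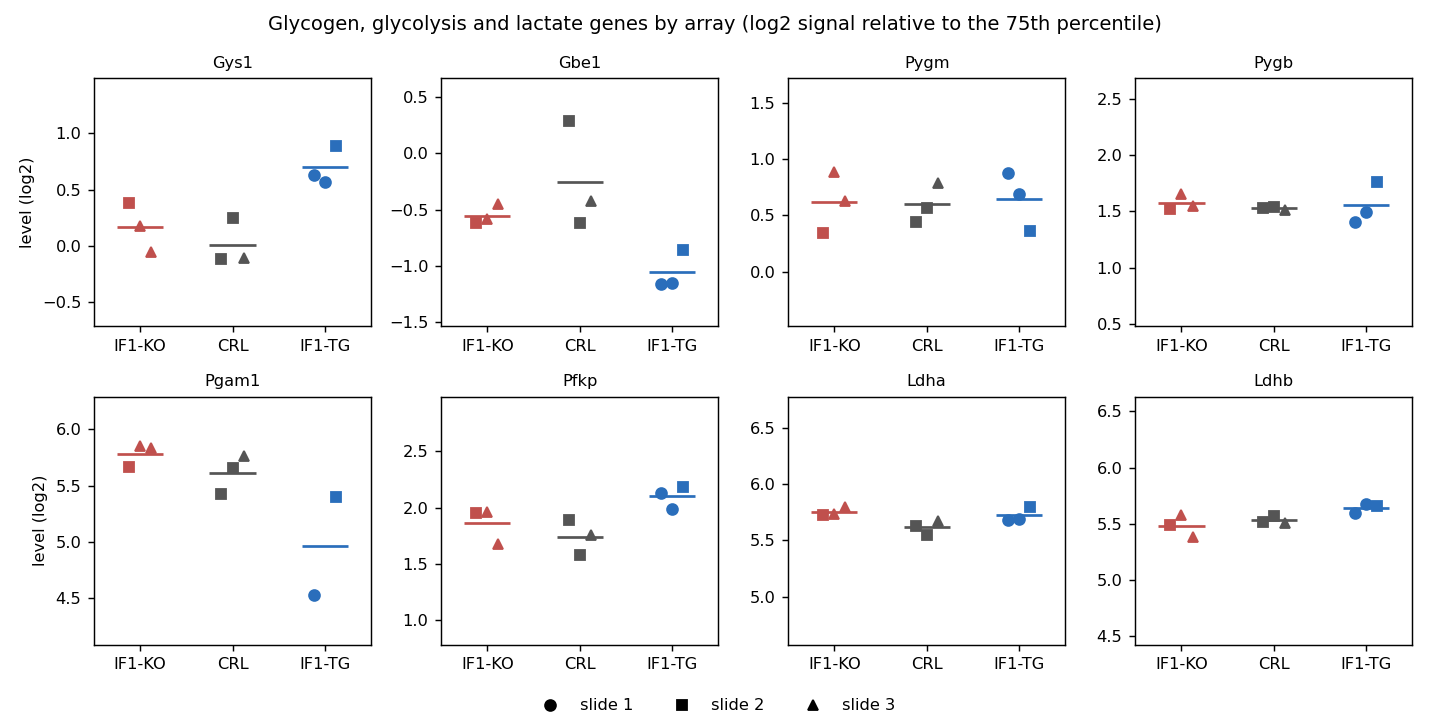
Log2 level of 8 genes on each of the 9 arrays, by genotype, above or below the array's own 75th percentile. Points are arrays, with their shape giving the slide, and bars are genotype means. The 3 IF1-TG arrays lie above the 6 others for Gys1 and below them for Gbe1, while the genotypes overlap for Pygm; IF1-TG replicate 2 has no value for Pgam1.

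Pgam1 (NM_023418) encodes the mutase that moves the phosphate of 3-phosphoglycerate in lower glycolysis. Its level was 4.53 and 5.40 in IF1-TG replicates 1 and 3, and the spot of replicate 2 was left out because the scanner software had marked it as an outlier. It was 5.42, 5.66 and 5.76 in CRL and 5.67, 5.85 and 5.84 in IF1-KO. Replicate 1 was far below all others, and replicate 3 was just below the lowest CRL array. The log2 level in IF1-TG fell by 0.65 ± 0.25 against CRL (adjusted P = 0.562 in limma) and by 0.82 ± 0.25 against IF1-KO (adjusted P = 0.66 in limma). Both calls were lost without IF1-TG replicate 1, where the log2 differences were −0.21 and −0.38, and without IF1-TG replicate 3 the differences were −1.09 and −1.26. The call against CRL held in 4 of 9 fits that left out 1 array, being lost also without IF1-KO replicate 2 or 3 or CRL replicate 2 or 3. With slide as a fixed block neither was called (−0.15 and −0.25). With the outlier spot kept, the difference from CRL was −0.48 and no longer called, and that from IF1-KO was −0.65 and still called. Within slide 2 IF1-TG differed from CRL by −0.14.

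Aldoa, Aldoc and Eno1 of lower glycolysis, each read by a bright probe, differed in IF1-TG by less than 1.5-fold and were not called. Aldoa, the aldolase of muscle and neurons that splits fructose 1,6-bisphosphate, had levels of 8.02, 8.29 and 8.33 in IF1-TG, 7.83, 7.86 and 7.74 in CRL, and 7.98, 7.97 and 8.02 in IF1-KO. Its log2 difference between IF1-TG and CRL was 0.40 ± 0.12 (adjusted P = 0.462 in limma). Aldoc, the aldolase typical of astrocytes, had levels of 7.12, 7.37 and 7.45 in IF1-TG, 7.08, 7.06 and 6.88 in CRL, and 7.08, 6.99 and 7.06 in IF1-KO, and IF1-TG differed from CRL by 0.31 ± 0.12 (adjusted P = 0.565 in limma). Eno1, the widely expressed enolase, had levels of 6.55, 6.63 and 6.84 in IF1-TG, 6.46, 6.53 and 6.09 in CRL, and 6.48, 6.32 and 6.12 in IF1-KO. Its IF1-TG level differed by 0.32 ± 0.16 from CRL (adjusted P = 0.636 in limma) and by 0.37 ± 0.16 from IF1-KO (adjusted P = 0.699 in limma). Without CRL replicate 3, the lowest CRL array, the former difference was 0.18. Arrays of IF1-TG and CRL did not overlap for Aldoa, Aldoc or Eno1. Of the remaining genes here, the triose phosphate isomerase Tpi1 differed between IF1-TG and CRL by 0.07, the phosphoglycerate kinase Pgk1 by −0.11 and the neuronal enolase Eno2 by 0.10. The brighter probe of the pyruvate kinase Pkm, which rests on a cDNA clone and is placed on another chromosome than the gene, read 4.96 in IF1-TG replicate 1 and 6.09 and 6.67 in the other IF1-TG mice. It differed from CRL by −0.29 ± 0.37, and the second Pkm probe by 0.29 ± 0.15 (adjusted P = 0.644 in limma).

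Bright probes as a whole were shifted the same way in IF1-TG. The median log2 difference between IF1-TG and CRL over all 260 kept probes with a mean level above 6 was 0.14, and 88.1% of them were higher in IF1-TG. In the 7147 probes below −4 the median was −0.07. Between IF1-KO and CRL the median of the probes above 6 was −0.01. The 8 members above 6 had a median IF1-TG minus CRL difference of 0.29. Measured against the 500 kept probes nearest in level, an alternative chosen after seeing the data, the difference was 0.29 for Aldoa, 0.19 for Aldoc and 0.20 for Eno1. Only 260 kept probes lay above 6, so those 500 reached below that level. Their median difference was 0.12 for Aldoa and Aldoc and 0.11 for Eno1, beside 0.14 for the probes above 6. A shift that grows with level may thus not be fully removed. With quantile normalization the IF1-TG minus CRL difference was 0.03 for Aldoa, 0.11 for Aldoc and 0.22 for Eno1. Aldoa ranked between 1 and 4 among the kept probes of each array there, and all 3 IF1-TG arrays had the same value. With normexp and quantile normalization together it was the brightest kept probe, at 1 identical value, on all 6 CRL and IF1-KO arrays and ranked 3 or 4 on the IF1-TG arrays, with a difference of −0.22. No direction is read for Aldoa from values tied in this way. In that setting the difference was 0.06 for Aldoc and 0.09 for Eno1. Gys1 and Gbe1 lie where the shift was close to 0, and their differences against the 500 probes nearest in level were 0.70 and −0.81.

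**Figure D2:**
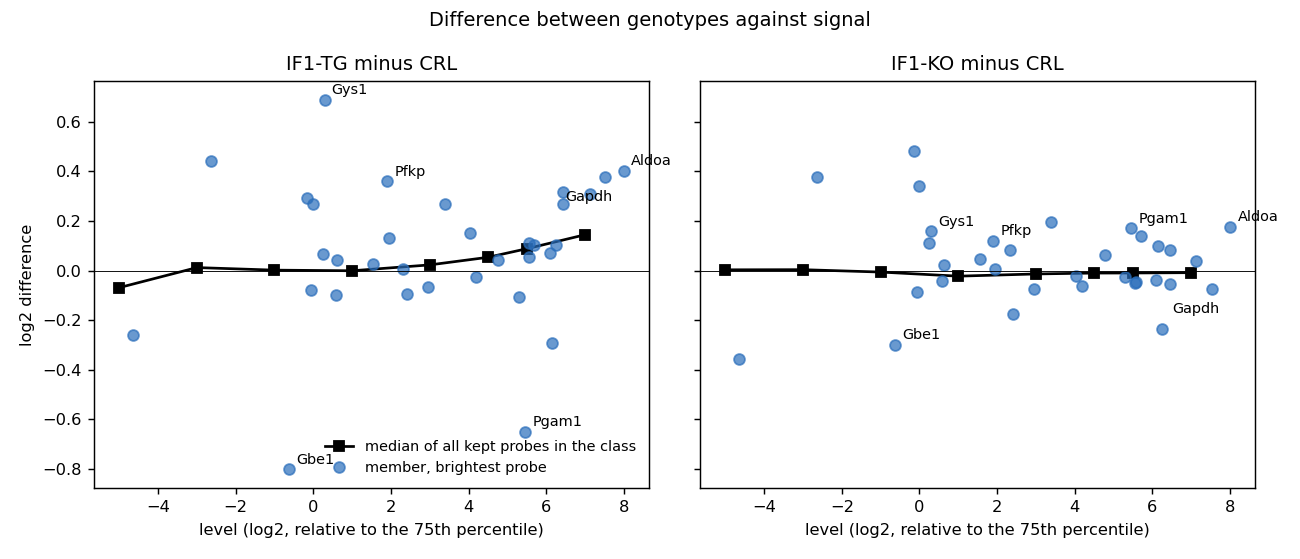
Log2 difference between genotypes against log2 level. Circles are the 33 genes by their brightest probe, and squares joined by a line are medians of all kept probes in 8 classes of level. In IF1-TG minus CRL the line climbs from −0.07 in the dimmest class to 0.14 in the brightest, where Aldoa and Gapdh lie; in IF1-KO minus CRL it stays near 0.

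Gapdh, which oxidizes glyceraldehyde 3-phosphate and often serves as a reference gene, had 9 probes that did not move together. The deposited annotation places none of the 9 on chromosome 6, where RefSeq has Gapdh, and 7 of the 9 also list transcripts of other RefSeq genes with predicted-gene symbols such as Gm12070 and Gm5069. The level of Gapdh itself is therefore uncertain, since near-identical copies may share its probes. Over all members, 24.5% of placed probes lay on another chromosome than the RefSeq gene, beside 3.57% of all kept probes. The probe that starts at base 346 of the transcript, placed at chr17:25464399-25464458 of mm9 on the minus strand, is shown whole.
Gapdh, start 346: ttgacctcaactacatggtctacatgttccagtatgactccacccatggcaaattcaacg
At the 3′ end, 4 probes share a stretch of 30 bases, shown because they differ from each other within it. Capitals mark the positions that are not the same in all 4.
Gapdh, brightest probe: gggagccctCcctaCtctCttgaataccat
Gapdh, other cDNA clone: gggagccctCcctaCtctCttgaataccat
Gapdh, start 1354: gggagccctCcctaTtctTttgaataccat
Gapdh, start 1365: gggagccctAcctaCtctCttgaataccat
Counted from the first base of the stretch and relative to the brightest probe, the probe at 1354 carries C15T and C19T and the probe at 1365 carries C10A.

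The brightest Gapdh probe had levels of 7.79, 7.74 and 7.87 in IF1-TG, 7.53, 7.65 and 7.08 in CRL, and 7.42, 7.24 and 7.38 in IF1-KO. Its log2 difference was 0.38 ± 0.16 between IF1-TG and CRL (adjusted P = 0.575 in limma) and 0.45 ± 0.16 between IF1-TG and IF1-KO (adjusted P = 0.66 in limma). With the low CRL replicate 3 left out, the difference from CRL was 0.21. The other side of the transcript read differently: the 4 probes of NM_008084 that start before base 1000 had IF1-TG minus CRL differences from −0.19 to 0.06, whereas the remaining 5 probes had differences from 0.13 to 0.38. The latter 5 are also the brightest, with mean levels from 6.99 to 7.52 beside 3.70 to 6.90. Averaged over the 9 probes, the IF1-TG minus CRL difference was 0.11, with an unadjusted P value above 0.05 in limma. With quantile normalization the brightest probe differed by 0.07. Across 2569 transcripts with probes at least 500 bases apart, the median 3′ minus 5′ log2 difference, relative to the mean of the arrays, was −0.02, 0.00 and −0.07 in the IF1-TG arrays and from −0.02 to 0.05 in the other 6.

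**Figure D3:**
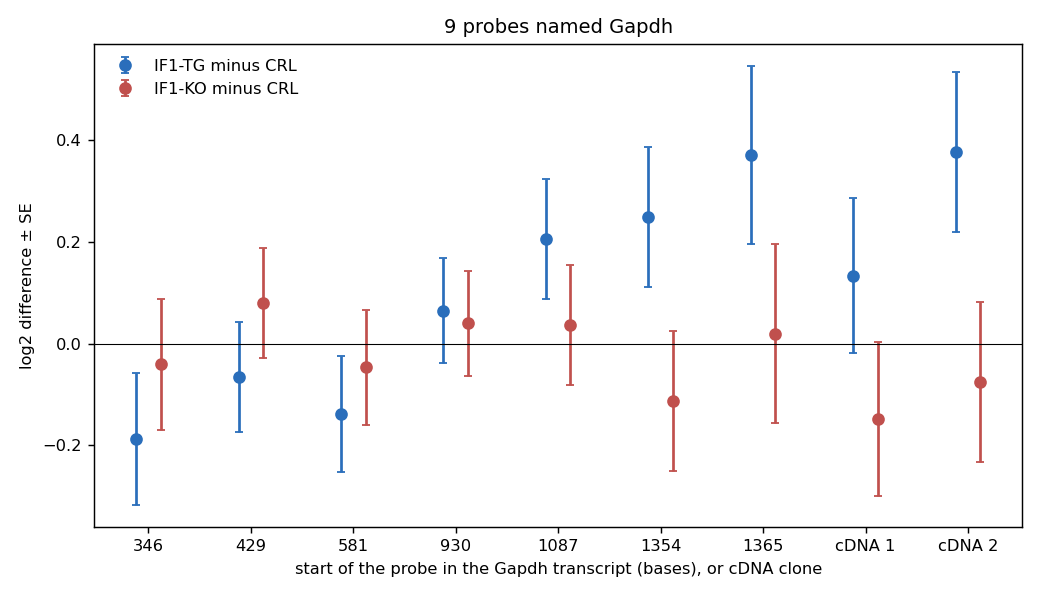
Log2 difference ± SE of the 9 probes named Gapdh, for IF1-TG minus CRL and IF1-KO minus CRL, ordered by the start of the probe in the transcript with the probes of 2 cDNA clones last. The IF1-TG differences run from −0.19 for the probe at base 346 to 0.38 for the brightest probe, and the IF1-KO differences lie between −0.15 and 0.08.

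Upstream of these steps, glucose transporters, hexokinases and phosphofructokinases gave no call. Slc2a1, the glucose carrier of the blood-brain barrier and astrocytes, and Slc2a3, that of neurons, differed between IF1-TG and CRL by −0.10 ± 0.13 and −0.07 ± 0.17, and between IF1-KO and CRL by −0.18 ± 0.13 and −0.07 ± 0.17. Hk1, the main hexokinase of brain, differed between IF1-TG and CRL by 0.05, and the glucose phosphate isomerase Gpi1 by 0.27 ± 0.14 (adjusted P = 0.638 in limma). Against the 500 kept probes nearest in level, these differences were −0.04 and 0.15. Hk2, the inducible hexokinase, had levels of −2.60, −2.27 and −2.53 in IF1-TG, −3.25, −2.97 and −2.50 in CRL, and −2.42, −2.73 and −2.44 in IF1-KO. It differed from CRL by 0.44 ± 0.20 in IF1-TG (adjusted P = 0.599 in limma) and by 0.38 ± 0.20 in IF1-KO (adjusted P = 1 in limma), and 1 CRL array overlapped both. The 2 probes of Pfkp, the platelet-type phosphofructokinase, went opposite ways between IF1-TG and CRL. The brighter one had levels of 2.13, 1.99 and 2.18 in IF1-TG, 1.89, 1.58 and 1.76 in CRL, and 1.95, 1.96 and 1.67 in IF1-KO, which gave a log2 difference between IF1-TG and CRL of 0.36 ± 0.13 (adjusted P = 0.547 in limma), and the dimmer one, which lies nearer the 3′ end, differed by −0.24 ± 0.16 (adjusted P = 0.71 in limma). Averaged, Pfkp differed by 0.06. Pfkl, Pfkm and the enzymes of fructose 2,6-bisphosphate, Pfkfb2 and Pfkfb3, differed by between −0.10 and 0.04 in that comparison.

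At the lactate end, neither dehydrogenase was called. Ldha, the subunit that favours lactate formation, had levels of 5.68, 5.69 and 5.79 in IF1-TG, 5.62, 5.55 and 5.67 in CRL, and 5.73, 5.74 and 5.80 in IF1-KO. Both altered genotypes lay just above CRL, by 0.10 ± 0.10 (95% interval from −0.12 to 0.33) in IF1-TG and 0.14 ± 0.10 (−0.09 to 0.36) in IF1-KO. The other 2 Ldha probes differed between IF1-TG and CRL by −0.09 and −0.08. Ldhb, the subunit that favours pyruvate formation, differed by 0.11 ± 0.10 in IF1-TG and −0.05 ± 0.10 in IF1-KO. Against the 500 kept probes nearest in level, Ldha differed from CRL by 0.01 in IF1-TG and 0.15 in IF1-KO. For Ldhb these values were 0.02 and −0.04. The monocarboxylate transporters Slc16a1, which exports lactate from glia and endothelium, and Slc16a7, which imports it into neurons, differed between IF1-TG and CRL by −0.26 ± 0.26 and 0.07. Of the pentose phosphate genes, Pgls and Pgd differed from CRL by 0.48 ± 0.26 and 0.34 ± 0.27 in IF1-KO, neither with an unadjusted P value below 0.05 in limma. G6pdx, Tkt and Taldo1 differed between IF1-TG and CRL by 0.13, −0.03 and 0.15.

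**Figure D4:**
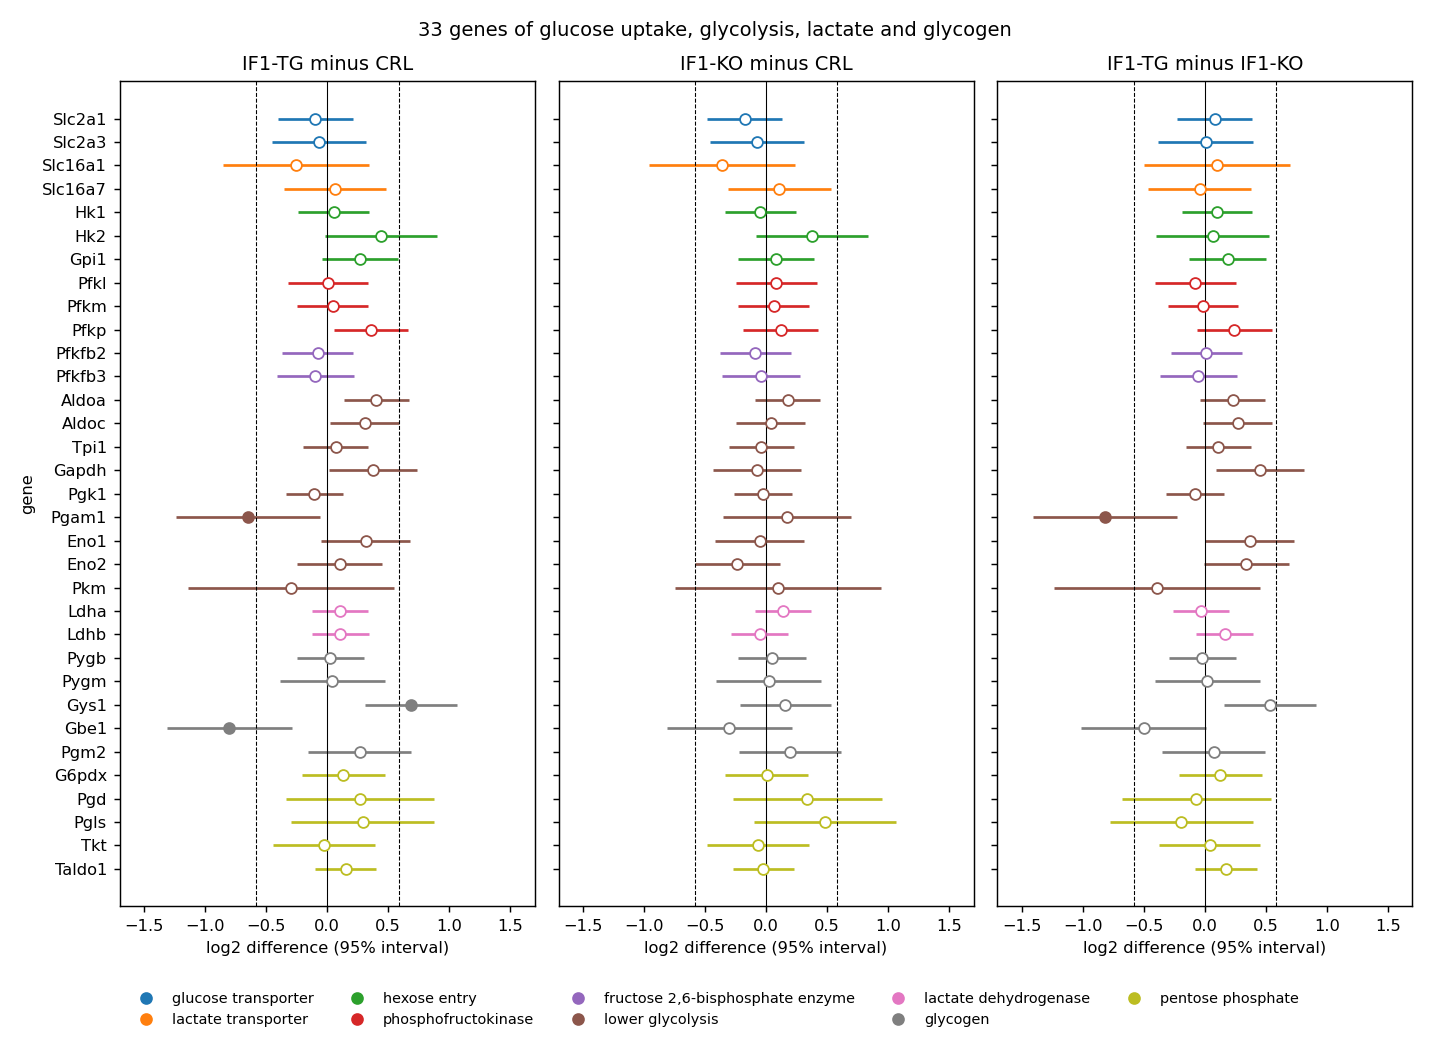
Log2 difference of each of the 33 genes by its brightest probe, with its 95% interval from limma, in the 3 comparisons. Colours give the role, filled circles mark a call and dashed lines mark 1.5-fold. Filled circles are Pgam1, Gys1 and Gbe1 in IF1-TG minus CRL and Pgam1 in IF1-TG minus IF1-KO; the middle panel has none.

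Over the 33 genes the median log2 difference was 0.07 between IF1-TG and CRL, 0.02 between IF1-KO and CRL, and 0.06 between IF1-TG and IF1-KO, beside −0.00, −0.01 and 0.01 over all genes tested. Against the 500 kept probes nearest in level these medians were 0.02, 0.03 and −0.00. The 95% interval lay wholly inside 1.5-fold for 19, 25 and 23 of the 33 genes, so for those genes a change of that size lay outside the interval. Arrays of IF1-TG and CRL did not overlap for 11 of 33 genes, 33.3% beside 12.1% of all genes. Of the 8 members above a level of 6, 4 did not overlap, beside 23.7% of all genes at that level. Arrays of IF1-KO and CRL did not overlap for 2 of 33, beside 8.06%, namely Aldoa and Ldha, and those of IF1-TG and IF1-KO for 11 of 33, beside 13.4%. Of the 8 members above a level of 6, 5 did not overlap in the latter comparison, beside 35.3% of all genes at that level.

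Within an array, the ratio of 2 related genes does not move when a constant is subtracted from the whole array, but it can move under quantile normalization. For 10 pairs of isoenzymes or paired transporters the log2 difference between both brightest probes was compared by an exact two-sided permutation test over arrays, for which 3 against 3 arrays cannot give a P value below 0.1. Aldoc relative to Aldoa differed from CRL by −0.10 in IF1-TG and by −0.14 in IF1-KO, with no overlap (exact permutation P = 0.1, adjusted over 10 pairs 0.5). With quantile normalization these values were 0.09 and 0.00, both with overlap. With normexp and quantile normalization together, chosen after seeing the data, they were 0.29, with no overlap, and −0.07, with overlap. Both rest on the tied Aldoa values described above, so no direction is read from them. Eno1 relative to the neuronal enolase Eno2 was higher by 0.21 in IF1-TG and by 0.18 in IF1-KO than in CRL, also with no overlap (exact permutation P = 0.1, adjusted 0.5), and by 0.11 and 0.07, with overlap, after normexp and quantile normalization together. Ldha relative to Ldhb differed by −0.19 between IF1-TG and IF1-KO with no overlap (exact permutation P = 0.1, adjusted 1). The other 7 pairs overlapped in all 3 comparisons. IF1-TG and IF1-KO are both set against the same 3 CRL arrays here. The only Eno1 probe is placed on chromosome 2 of mm9, whereas RefSeq has the gene on chromosome 4.

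Glycolytic genes are well-known targets of the hypoxia-inducible factors, which bind the core ACGTG. RefSeq promoter windows of GRCm38.p6, from 250 bases before to 50 after a start, were found for 31 of the 33 genes. ACGTG was present on either strand in at least 1 window of 18 of the 31 genes, 58.1%, beside 21.8% of all 27025 genes with a window. The motif overlaps the E-box CACGTG, which 10.9% of the members' windows and 7.15% of all windows held. The 250 bases before the start are shown for Ldha (chr7:46845554-46845803), which holds the motif in 3 places of which 2 are CACGTG, for the called gene Pgam1 (chr19:41911621-41911870), which holds it once, and for the called gene Gys1 (chr7:45434589-45434838), in which these letters do not occur, all on the plus strand. Capitals mark the motif.
Ldha: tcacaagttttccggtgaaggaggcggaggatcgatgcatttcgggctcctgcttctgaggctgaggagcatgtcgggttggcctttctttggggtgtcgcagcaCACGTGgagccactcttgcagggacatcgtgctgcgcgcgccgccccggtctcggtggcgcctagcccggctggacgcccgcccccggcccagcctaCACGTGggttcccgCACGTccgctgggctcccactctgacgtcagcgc
Pgam1: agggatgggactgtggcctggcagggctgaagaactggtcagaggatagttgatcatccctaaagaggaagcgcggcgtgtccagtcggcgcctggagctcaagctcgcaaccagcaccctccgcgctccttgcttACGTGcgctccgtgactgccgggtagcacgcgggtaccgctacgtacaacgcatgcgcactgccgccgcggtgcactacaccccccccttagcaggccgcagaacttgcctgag
Gys1: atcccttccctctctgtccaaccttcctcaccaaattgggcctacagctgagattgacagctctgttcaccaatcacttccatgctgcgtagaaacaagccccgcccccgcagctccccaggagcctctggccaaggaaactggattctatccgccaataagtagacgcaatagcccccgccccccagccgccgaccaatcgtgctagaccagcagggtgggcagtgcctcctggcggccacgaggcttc

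A wider list of 79 pathway genes, of which 69 could be tested, gave 4 calls between IF1-TG and CRL, all lower, or 5.80% of the 69, beside 5.59% of all genes called in either direction and 2.79% called lower. It gave 1 call between IF1-KO and CRL, higher, or 1.45%, beside 1.34% of all genes in either direction and 0.808% higher. Between IF1-TG and IF1-KO it gave 5, all lower, or 7.25%, beside 4.7% in either direction and 2.56% lower. The lower calls include probes of Pgk2 and Pgm5 that not all IF1-TG mice had well above background. Without the filter on dim probes 78 genes were tested. Then 3 were higher and 5 lower between IF1-TG and CRL, and 4 higher and 5 lower between IF1-TG and IF1-KO. With normexp and quantile normalization together, the calls were 1, 0 and 1, the former and the latter being Tigar. Between IF1-TG and CRL there were 3 higher and 2 lower without CRL replicate 2, 3 higher and 3 lower without CRL replicate 3 or IF1-TG replicate 2, and 3 higher and 7 lower with slide as a fixed block, so the calls were not all lower under every setting. Without IF1-KO replicate 1 there was no call between IF1-KO and CRL, and 1 higher and 2 lower between IF1-TG and IF1-KO. The latter comparison had 2 lower without IF1-KO replicate 2 and 3 lower among probes well above background in all 9 mice. Of 23 genes tested among regulators of glycolytic genes, 1 was called, and only between IF1-TG and IF1-KO, beside 4.7% of all genes in that comparison. It was the nuclear receptor Esrrg, on the dimmer of its 2 probes, by −0.59 ± 0.25 (adjusted P = 0.697 in limma). The brighter Esrrg probe differed by −0.13 ± 0.17.

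Among the pathway genes, Epm2a, which encodes the glycogen phosphatase laforin, had levels of −4.26, −4.74 and −4.29 in IF1-TG, −3.68, −3.64 and −4.03 in CRL, and −3.53, −3.85 and −3.999 in IF1-KO. All 3 IF1-TG arrays lay below the others. The difference from CRL was −0.65 ± 0.19 (adjusted P = 0.467 in limma), a 1.57-fold change. It was −0.42 with normexp and quantile normalization together, short of 1.5-fold, and the call was also lost without CRL replicate 2 or IF1-TG replicate 2. The gene the array lists as Pgm1, which carries the symbol Pgm2 in RefSeq, had levels of −4.75, −4.96 and −5.42 in IF1-TG, −3.82, −4.32 and −4.10 in CRL, and −4.57, −4.06 and −4.41 in IF1-KO. It differed by −0.96 ± 0.22 from CRL (adjusted P = 0.371 in limma), a 1.95-fold change, and by −0.53 with normexp and quantile normalization together, short of 1.5-fold. Pgk2, the testis phosphoglycerate kinase, had levels of −7.07, −7.56 and −5.38 in IF1-TG and from −5.57 to −5.19 in the 6 other arrays. It was well above background on 1 of 3 IF1-TG arrays, so no fold is given. The 2 low arrays are those of slide 1, whereas within slide 2 IF1-TG differed from CRL by 0.03, and with slide as a fixed block by 0.06, which was not called, both resting on 1 IF1-TG array. The phosphoglucomutase-like gene Pgm5 was called lower against IF1-KO on 1 of its 3 probes. No IF1-TG mouse had that probe well above background, so no fold is given. It read −7.54, −7.17 and −6.23 in IF1-TG and −6.19, −5.97 and −6.40 in IF1-KO. The 2 low arrays are again those of slide 1, and IF1-TG replicate 3 lay among the IF1-KO arrays. The other Pgm5 probes differed by −0.07 and −0.42. Pfkfb1 differed by 0.60 ± 0.19 between IF1-KO and CRL (adjusted P = 1 in limma), and was not called without IF1-KO replicate 1, without CRL replicate 1 or with quantile normalization.

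The smallest P value in the list was that of 1 of 2 neighbouring probes of Tigar, which encodes a fructose-2,6-bisphosphatase that slows glycolysis. The probes follow each other without a gap on the minus strand of chromosome 6, the first at chr6:127035231-127035290 and the second at chr6:127035171-127035230 of mm9. Their first 30 bases are shown because the 2 read differently.
Tigar, start 3496: tgttgttccaatgcctttcacgtgtacaga
Tigar, start 3556: cccatattgtttgaggcactatttatttgg
The probe at 3556 had levels of −1.29, −1.16 and −1.44 in IF1-TG, −0.29, −0.36 and −0.32 in CRL, and −0.35, −0.51 and −0.33 in IF1-KO, so all IF1-TG arrays lay well below the 6 others, which were tightly grouped. It differed by −0.97 ± 0.12 from CRL, a 1.96-fold change (adjusted P = 0.139 in limma), and by −0.90 ± 0.12 from IF1-KO (adjusted P = 0.178 in limma). Within slide 2 it differed from CRL by −1.12. The adjoining probe had levels of 1.48, 1.56 and 1.34 in IF1-TG and 0.88, 1.55 and 1.26 in CRL, a log2 difference of 0.23 ± 0.29 (adjusted P = 0.853 in limma). The drop at 3556 was therefore not matched by a drop at 3496.

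**Figure D5:**
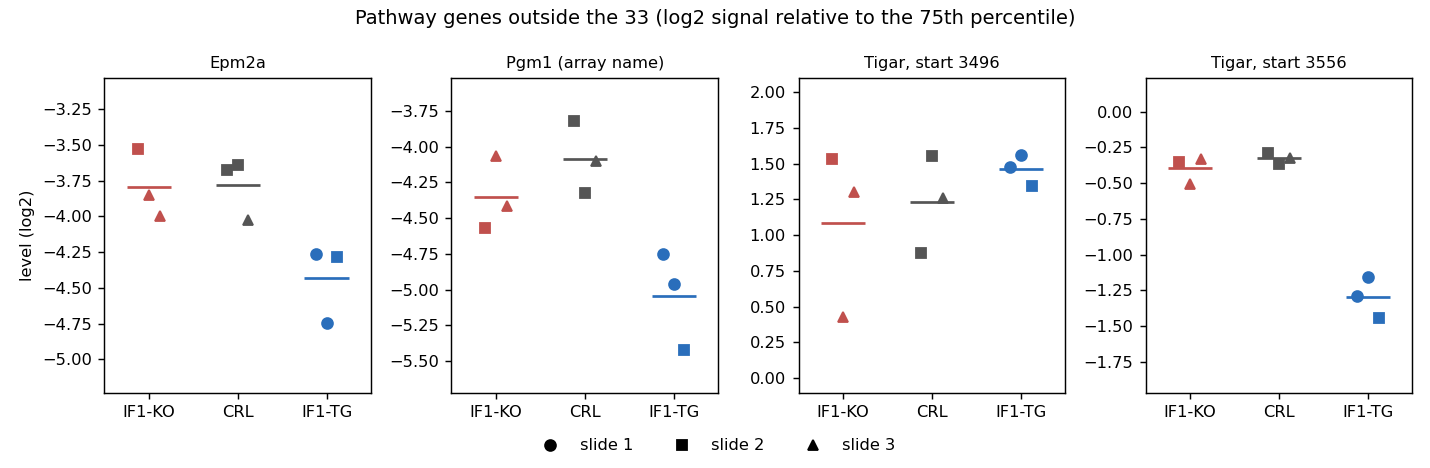
Log2 level of Epm2a, of the gene listed as Pgm1 and of the 2 Tigar probes on each array, above or below the array's own 75th percentile, with slide given by shape and genotype means as bars. The IF1-TG arrays lie below the 6 others for Epm2a, for Pgm1 and for the Tigar probe starting at 3556, where they read −1.29, −1.16 and −1.44, and among the others for the probe starting at 3496.

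The summed level of 10 hippocampal markers ran from 4.79 to 5.34 over the 9 arrays. Lists of 10 astrocyte, 10 microglial, 10 oligodendrocyte, 10 endothelial, 8 mural and leptomeningeal and 8 choroid plexus markers, and the blood list with 5 of 6 tested, had no member called against CRL in either genotype. The summed choroid plexus level ran from 1.18 to 6.62 in IF1-KO, 1.85 to 6.92 in CRL and 2.40 to 7.56 in IF1-TG, so this tissue varied widely within each genotype. The summed microglial level was 5.79 to 5.96 in IF1-KO, below all arrays of CRL (6.00 to 6.12) and IF1-TG (6.04 to 6.23). The summed mural and leptomeningeal level was 3.87 to 4.25 in IF1-KO, above CRL (3.51 to 3.69), and 2.94 to 4.35 in IF1-TG. The summed oligodendrocyte level was 7.0185 to 7.3025 in IF1-TG, above IF1-KO (6.4621 to 7.0001), and 6.88 to 7.26 in CRL. The part of these cell types in the results was not tested. Between IF1-TG and CRL, 1 of 10 excitatory neuron and 2 of 6 thalamic markers were called higher, beside 2.83% of all genes, and 1 of 8 interneuron, 1 of 7 striatal and 2 of 5 tested skeletal muscle markers were called lower, beside 2.79%. Between IF1-KO and CRL, 1 of 7 striatal markers was called lower, beside 0.539%. Between IF1-TG and IF1-KO, 1 astrocyte, 1 oligodendrocyte and 1 thalamic marker were called higher, beside 2.15% of all genes, and 1 skeletal muscle marker lower, beside 2.56%.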

How the data were processed

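Total RNA of hippocampus from 9 mice was labelled with one dye and hybridized to 1 Agilent array per mouse. The deposited files hold spot intensity from Agilent Feature Extraction 10.7.3.1, which per the file headers had already subtracted background to give the processed signal. Here, log2 processed intensity minus the 75th percentile of each array was used. Spots marked as outliers were left out, spots of a probe were averaged, and a probe was kept if some genotype had it well above background in each of its 3 mice. All 9 arrays were fitted by genotype with limma 3.58.1 in R 4.3.3, with Benjamini-Hochberg adjustment over the 27991 kept probes, and the procedure was tested on simulated data. Calls needed a 1.5-fold change and an unadjusted P value below 0.05, the thresholds of the study. Among the 33 genes, values on every array are given for those called, for those with an unadjusted P value below 0.05 on the brightest probe, and for Pygm, Gapdh and Ldha. The genes and lists were chosen with earlier results of these data known. Positions of probes come from the array annotation (mm9), and promoters are from RefSeq (GRCm38.p6). Alternatives covered background correction (normexp, together with quantile normalization), scaling, filters, slide and replicate blocks, samples in the fit, variance prior, probe choice and leaving out each array.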

Additional observations from a re-analysis of the deposited data

How the results depend on the processing

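Gys1 stayed called between IF1-TG and CRL whichever array was left out, and of the alternatives run lost the call only with normexp and quantile normalization together (0.56 on the log2 scale). Without single arrays, the number of the 33 genes called ran from 2 to 4 for IF1-TG versus CRL, 0 to 2 for IF1-KO versus CRL and 0 to 4 for IF1-TG versus IF1-KO. The latter was 0 without the first IF1-TG array and 4 without the third. It was 2 when IF1-KO replicate 1 or the second IF1-TG array was left out. Without CRL replicate 3, 2 genes, Pgls and Slc16a7, were called for IF1-KO versus CRL. The share of all genes called was counted only for the fits without IF1-KO replicate 1 (2.06% against CRL and 5.73% for IF1-TG versus IF1-KO). The other counts therefore cannot be set against all genes. Over all fits without single arrays the medians ran from 0.033 to 0.123, −0.011 to 0.031 and 0.0077 to 0.090. Pairs that did not overlap ran from 2 to 4, 2 to 5 and 1 to 3. The median for IF1-TG versus CRL was 0.030 with normexp and quantile normalization together, 0.026 with quantile normalization alone and 0.19 with slide as a fixed block. Relative to the 500 kept probes nearest in level it was 0.018. For IF1-TG versus IF1-KO it was −0.017, 0.010, 0.15 and −0.00029, and 2 genes were called with normexp and quantile normalization together, 0 with slide as a fixed block and 0 with the filter on all 9 arrays, where Pgam1 drops out for its missing spot. With quantile normalization 1 pair did not overlap for IF1-KO versus CRL and 2 for IF1-TG versus IF1-KO. With slide as a fixed block the IF1-TG minus CRL difference was 0.80 for the brightest Gys1 probe. It passed 1.5-fold also on probes of Gpi1, Hk1 and Pkm that are not their brightest (0.63, 0.64 and 0.64). That Gpi1 probe is placed on another chromosome than the gene. The fit with this block rests on 1 IF1-TG array, replicate 3, since slide 1 held no other genotype. Replicate numbers did not pair the arrays (correlations of same-numbered arrays from −0.17 to 0.12), and with the replicate number as a block the calls were 3, 0 and 1 and the medians 0.07, 0.02 and 0.06. The outlier spots, the comparison with the 500 nearest probes and the choice of probes on the gene's own chromosome were added after seeing the data.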
